A study of Mus musculus with 18 samples.

Results

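Peritoneal macrophages carrying a mutation of Smim30 (Mut) were compared by RNA sequencing with wild-type (WT) peritoneal macrophages. The libraries were chosen by their titles, 3 of each genotype, which are 6 of the 18 libraries in the series. All 6 cultures had received lipopolysaccharide (LPS), the outer membrane component of Gram-negative bacteria, at 5 ng/ml for 6 h, and no untreated culture was among them. Every difference described here is therefore one between LPS-treated mutant and LPS-treated wild-type cells. The labels give C57BL/6J as the strain of both groups. They do not give the mutated bases, the age of the mice, or whether WT and Mut were littermates. Whether the triplicates came from different animals or dishes is not stated either, and the p-values therefore reflect variation among libraries that may be technical. The other groups were Mut macrophages with adenovirus and the macrophage line IC-21 with siRNA, and only the siRNA pair was used for a test here.

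LPS is sensed by CD14 and Toll-like receptor 4. One signalling arm of that receptor activates NF-kB and the MAP kinases, which drive cytokine and chemokine genes. Another arm leads to type I interferon, which acts back on the cell through JAK kinases and STAT factors and raises a large group of interferon-stimulated genes. Smim30 encodes a small membrane protein, and its transcript had long been annotated as noncoding. The gene, also listed as 2610001J05Rik and ENSMUSG00000052419.7, spans chromosome 6 positions 13867735 to 13871518 of GRCm38, minus strand. The whole reading frame lies in exon 3, and it is shown because it is the coding part of the gene that was mutated. It runs over chr6:13870532-13870711 on the minus strand and is written 5′ to 3′, with the start and stop codons in capitals.
Smim30 reading frame: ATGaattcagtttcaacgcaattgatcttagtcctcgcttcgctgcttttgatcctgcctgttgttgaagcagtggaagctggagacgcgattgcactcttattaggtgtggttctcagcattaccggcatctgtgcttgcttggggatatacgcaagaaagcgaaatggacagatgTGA
The frame has 177 coding bases for 59 residues, against 3784 exonic bases over which reads were counted. Reads were thus counted mostly outside it, and a gene-level count cannot show a changed codon or a small deletion. Smim30 stood at 44.2, 51.4 and 49.7 CPM in WT replicates 1 to 3 and at 42.5, 52.6 and 50.8 CPM in Mut, where CPM is the count scaled to a common library size. The groups overlapped and the log2 fold change was 0.013 ± 0.081 (SE, adjusted p = 0.966). The count did not check the Mut label.

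Between 7947364 and 12246311 read pairs were assigned to genes in the 6 libraries, and the detection floor, set at 3 counts, equalled 0.245 to 0.378 CPM and covers counting error only. Genes of ribosomal RNA held 2.49, 2.33 and 1.74% of counts in WT and 0.40, 1.03 and 0.593% in Mut, so this share was lower in every Mut library. Its part in the results was not tested beyond a fit without those genes, which called the same 788 genes. Lars2, which encodes mitochondrial leucyl-tRNA synthetase, ran in the same direction at 1166, 1224 and 813 CPM in WT and 187, 557 and 342 CPM in Mut, with adjusted p = 0.194. Lars2 passed with DESeq2 (adjusted p = 0.0161) and with all 18 libraries in the fit (adjusted p = 0.0212). No mitochondrial gene had a count. The Y-linked gene Ddx3y had 518 to 704 counts in WT and 509 to 693 in Mut, with at most 2 counts of Xist in any of the 6. Defining macrophage genes were present throughout: Adgre1, which encodes F4/80, had 6042 to 7873 counts in WT and 5554 to 8745 in Mut. Gata6, the factor that marks large peritoneal macrophages, was low in both groups, with 31 to 51 counts in WT and 29 to 47 in Mut.

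Of 12500 genes tested with edgeR, 788 passed an adjusted p of 0.05 (6.3%). In Mut, 460 were higher (3.68%) and 328 were lower (2.62%), and 2246 had an unadjusted p under 0.05. Most changes were small. The median fold was 1.251 among the higher genes and 1.224 among the lower genes, and 102 higher and 37 lower genes were at least 1.5-fold apart. At least 2-fold changes were fewer, 53 genes or 0.424% of those tested, with 37 higher and 16 lower. The median log2 fold change over all tested genes was -0.0057. The 3 libraries of one group all lay outside the range of the other in 782 of the called genes, and in 2829 of all tested genes (22.6%). With each library left out in turn, 345 of the 788 passed in all 6 fits, 223 higher and 122 lower, and 33 of the 53 large changes did. The count of 788 was 469 without Mut replicate 2, of which 457 were among the 788. Calls rose with level: the lowest quartile of genes by level gave 23 higher and 17 lower, and the highest quartile gave 276 and 198 of 3125 genes. In bulk RNA, fewer cells that express a gene and less of its RNA per cell cannot be told apart, which applies to every value given here.

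**Figure D1:**
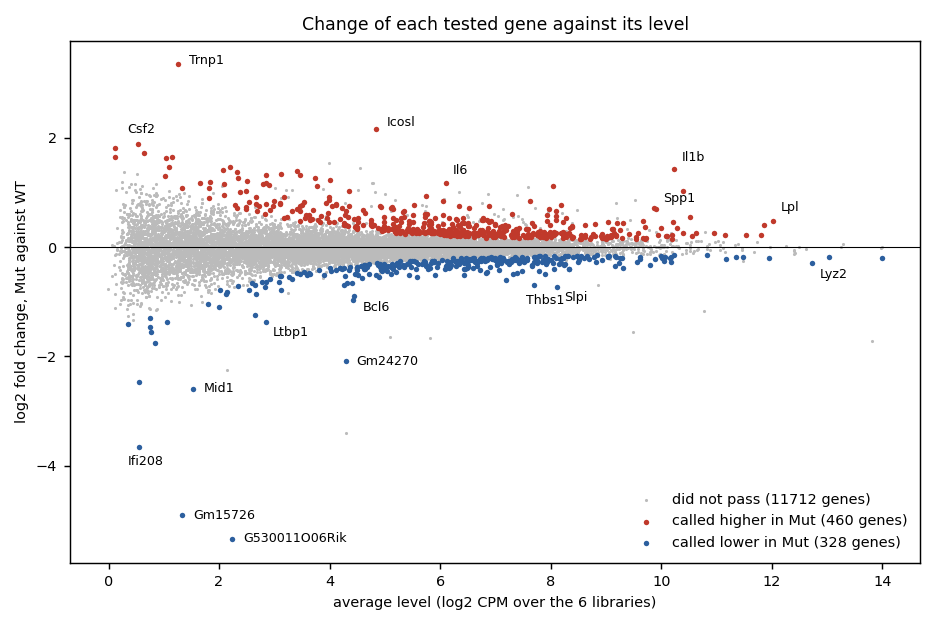
Each point is 1 of the 12500 tested genes, with its average level over the 6 libraries as log2 CPM on the x axis and its log2 fold change, Mut against WT, on the y axis. The 460 genes called higher are red and the 328 called lower are blue, and the widest points lie at low levels, from Trnp1 at 3.34 to G530011O06Rik at -5.34.

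The largest differences were near on or off in one group. G530011O06Rik, a noncoding transcript (chromosome X, 169975043 to 169978917, minus strand), stood at 8.59, 10.2 and 7.92 CPM in WT and at 0.253, 0.441 and 0 CPM in Mut, where the counts were 2, 4 and 0. Its neighbour Gm15726 stood at 4.24, 4.74 and 4.59 CPM in WT and 0.379, 0.11 and 0 CPM in Mut. Both transcripts lie on the minus strand inside the span of Mid1 (chromosome X, 169685199 to 170005736, plus strand), which encodes a microtubule-bound ubiquitin ligase and lies on the other strand. Mid1 itself stood at 4.88, 4.62 and 4.32 CPM in WT and 1.14, 0.221 and 0.896 CPM in Mut. All 3 had every Mut library below every WT library, with log2 fold changes of -5.34 ± 0.40, -4.91 ± 0.50 and -2.59 ± 0.35 and adjusted p of 1.28e-10, 4.44e-08 and 5.52e-06. The other 3 tested genes within 2 Mb before the start of Mid1 or beyond it, Arhgap6, Hccs and Msl3, did not pass. Hccs passed without WT replicate 3 (adjusted p = 0.0285). Gm24270, a small RNA gene listed as a miRNA, fell from 33.3, 34 and 27.3 CPM to 5.31, 9.82 and 6.84 CPM (log2 fold change -2.09 ± 0.16, adjusted p = 4.44e-08). In Mut its order over libraries was that of the ribosomal RNA share and of Lars2, both given above, and WT replicates 1 and 2 were the highest for all 3 measures. In the 12 other libraries, where the ribosomal RNA share was 0.195 to 0.484%, Gm24270 stood at 1.67 to 5.61 CPM. The part of the ribosomal RNA share in this fall was not tested. Slc15a2, a transporter of di- and tripeptides, fell from 2.12, 2.72 and 2.52 CPM to 0.632, 0.662 and 0.814 CPM (log2 fold change -1.76 ± 0.38, adjusted p = 0.00274).

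In the other direction, Trnp1, a nuclear protein gene known from neural progenitors (chromosome 4, 133491100 to 133498550, minus strand), was near the detection floor in WT at 0.424, 0.474 and 0.27 CPM and stood at 4.17, 3.97 and 3.83 CPM in Mut (log2 fold change 3.34 ± 0.39, adjusted p = 5.1e-07). Icosl, whose product costimulates T cells through ICOS (chromosome 10, 78069302 to 78083913, plus strand), had the smallest p of all genes. It stood at 10.8, 10.3 and 9.99 CPM in WT and 43.4, 46.98 and 48.05 CPM in Mut. The groups lay far apart and replicates within each differed little (log2 fold change 2.16 ± 0.10, adjusted p = 1.05e-15). Among further genes at low level, Nt5c1a, a cytosolic nucleotidase, rose from 0.742, 1.07 and 0.9 to 3.16, 2.65 and 2.69 CPM (log2 fold change 1.63 ± 0.35, adjusted p = 0.00258). The growth factor gene Nrg1 rose from 0.636, 0.355 and 0.81 to 1.77, 1.87 and 2.44 CPM (log2 fold change 1.72 ± 0.42, adjusted p = 0.00799). Nrg1 no longer passed without WT replicate 2 or Mut replicate 3 (adjusted p = 0.0517 to 0.0626). Shisa3, which encodes an antagonist of Wnt signalling, rose from 6.04, 6.52 and 4.77 to 15.2, 17.98 and 12.5 CPM. Stxbp6, which encodes a SNARE-binding protein, rose from 3.29, 2.13 and 3.06 to 8.22, 7.72 and 5.13 CPM, and the potassium channel gene Kcna3 rose from 4.77, 4.15 and 4.05 to 11.8, 10.5 and 7.57 CPM. The log2 fold changes of these last 3 were 1.40 ± 0.16, 1.27 ± 0.24 and 1.18 ± 0.19, with adjusted p of 7.78e-07, 0.000517 and 0.000103.

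**Figure D2:**
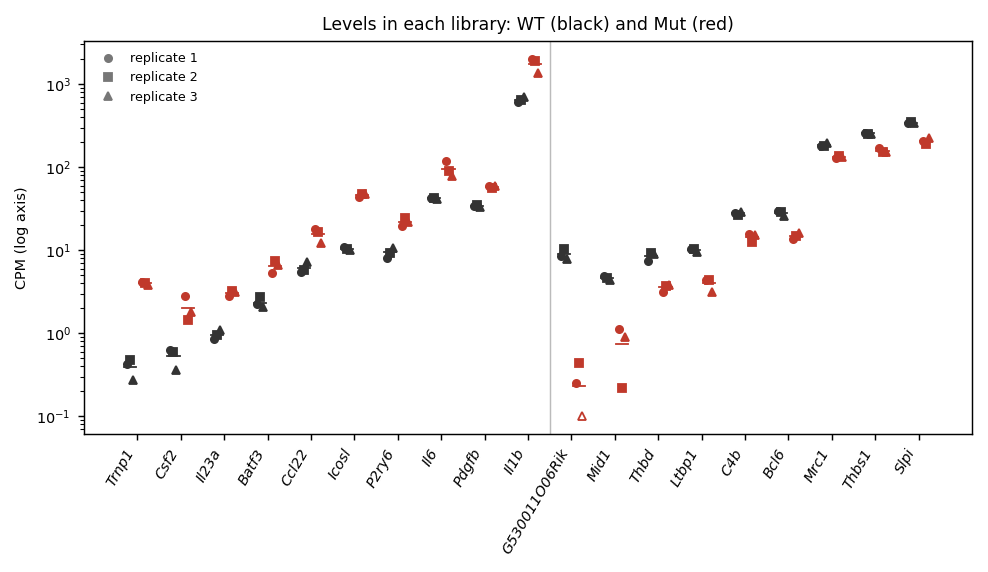
CPM of 19 genes on a log axis, with WT libraries in black, Mut libraries in red, a marker shape per replicate and a short line at each group mean; an open marker at the axis floor stands for a count of 0. Left of the grey line are 10 genes called higher in Mut and right of it 9 called lower, and in each of the 19 the 3 Mut libraries lie wholly on one side of the 3 WT libraries.

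Promoter stretches of 6 genes with separated groups are shown because they carry recognition motifs of factors that act in these pathways. Each is the 120 bases before an annotated start of the gene, from RefSeq promoters of GRCm38.p6, 5′ to 3′ on the gene's strand, with the motif in capitals. Where a gene had several starts, the one with the nearest match was taken. The Bcl6 start shown lies inside the gene, which spans chromosome 16 positions 23965052 to 23988852 on the minus strand. The NF-kB motif searched was GGGNNTTTC, the interferon-stimulated response element GAAANNGAA, the STAT motif TTCNNNGAA and the TFEB motif TCACGTGA, each on both strands. Over all 32851 windows of 300 bases, 4.36, 8.56, 8.3 and 0.97% held them.
Cxcl2, chr5:90903779-90903898, plus strand: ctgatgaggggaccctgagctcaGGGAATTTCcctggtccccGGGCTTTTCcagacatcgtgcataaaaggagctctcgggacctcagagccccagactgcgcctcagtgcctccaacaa
Cxcl3, chr5:90785981-90786100, plus strand: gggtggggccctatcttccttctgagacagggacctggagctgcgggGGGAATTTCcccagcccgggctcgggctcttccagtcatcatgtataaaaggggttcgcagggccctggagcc
Isg15, chr4:156200819-156200938, minus strand: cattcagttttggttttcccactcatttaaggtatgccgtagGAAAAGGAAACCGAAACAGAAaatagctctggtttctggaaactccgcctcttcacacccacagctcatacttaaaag
Ifi211, chr1:173913047-173913166, minus strand: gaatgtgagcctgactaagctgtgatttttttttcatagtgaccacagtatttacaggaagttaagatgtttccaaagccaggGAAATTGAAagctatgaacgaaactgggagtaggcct
Bcl6, chr16:23981284-23981403, minus strand: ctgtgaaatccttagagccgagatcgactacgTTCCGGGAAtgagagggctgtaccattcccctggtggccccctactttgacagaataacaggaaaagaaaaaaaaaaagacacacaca
Mcoln1, chr8:3500399-3500518, plus strand: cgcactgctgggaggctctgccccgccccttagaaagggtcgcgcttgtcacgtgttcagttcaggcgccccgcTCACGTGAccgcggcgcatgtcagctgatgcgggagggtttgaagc
Cxcl2 held 2 matches of the NF-kB motif and Cxcl3 1, the nearer starting 78 and 73 bases before the start. Isg15 held 3 overlapping matches of the interferon element and Ifi211 1. Bcl6 held a STAT match and Mcoln1 a TFEB match. A match is a description of the letters and no binding site was measured. A window was found for 613 of the 788 called genes, under 80%, so a comparison of motif shares between called and tested genes is void and none is given.

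Among secreted signals, several chemokine genes rose, Cxcl2 and Cxcl3 for neutrophil attraction among them. Of 11 tested CXC chemokines, 5 rose (45.5%) and 1 fell, with a median log2 fold change of 0.48. Here and below, the share of a list called is to be read against the 3.68% of all tested genes that rose and the 2.62% that fell. Cxcl3 stood at 674, 695 and 743 CPM in WT and 1192, 1164 and 1110.2 CPM in Mut (log2 fold change 0.71 ± 0.047, adjusted p = 9.57e-12), and Cxcl2 at 985, 1032 and 999 and 1449.6, 1365 and 1310.4 CPM (log2 fold change 0.45 ± 0.046, adjusted p = 5.75e-08). In both genes every Mut library was above every WT library. Cxcl1, their close relative with the same receptor, stood at 629, 674 and 645 CPM in WT and 659.9, 609 and 604 CPM in Mut, where the groups overlapped (log2 fold change -0.057 ± 0.047, adjusted p = 0.595). Cxcl5 was called at 0.74 ± 0.14, the interferon-inducible Cxcl10 at 0.94 ± 0.13 and Cxcl16, a ligand of CXCR6, at 0.22 ± 0.048. Pf4, a chemokine known from platelets, was the member that fell (log2 fold change -0.31 ± 0.093, adjusted p = 0.0383). Pf4 missed the threshold when any 1 of the 6 libraries was left out (adjusted p = 0.0523 to 0.155). Of 10 tested CC chemokines, 3 rose (30%) and none fell, with a median of 0.54, and 5 were called without Mut replicate 3. The count was 4 without WT replicate 3 or Mut replicate 1 and 2 without WT replicate 1. Ccl22, a ligand of CCR4, went from 5.51, 5.81 and 7.202 to 18.1, 16.8 and 12.3 CPM (log2 fold change 1.32 ± 0.16, adjusted p = 1.71e-06). Ccl4 went from 186, 184 and 203 to 353, 301 and 279 CPM and Ccl3 from 1152, 1198 and 1230.5 to 1959.8, 1755 and 1533 CPM. Ccl3 lost the call without WT replicate 1 (adjusted p = 0.104). Of 6 tested chemokine receptors none rose and Cxcr4 fell, from 25.9, 26.3 and 27.8 to 19.2, 16.1 and 20.5 CPM (log2 fold change -0.51 ± 0.10, adjusted p = 0.00168).

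Of the tested cytokine families, the interleukin-1 list had 2 of 9 higher (22.2%), the interleukin-6 list 2 of 9 (22.2%) and the interleukin-12 subunits 1 of 5, with none lower in any of them. Il1b stood at 607, 646 and 696 CPM in WT and 2028, 1876 and 1377 CPM in Mut, and Il6 at 42.1, 42.4 and 41.9 and 118, 90.99 and 78.9 CPM. Every Mut library was above every WT library, while the Mut replicates differed among themselves, and the log2 fold changes of 1.44 ± 0.18 and 1.18 ± 0.17 had adjusted p of 0.021 and 0.0157. Il1b no longer passed without WT replicate 1, 2 or 3 or Mut replicate 1 or 2 (adjusted p = 0.0554 to 0.109). Il6 missed the threshold without WT replicate 1, 2 or 3 or Mut replicate 2 (adjusted p = 0.0639 to 0.12). Il1a (1.03 ± 0.17) and Inhba, which encodes the activin A subunit (1.12 ± 0.17), spread in the same way over the Mut replicates. Il1a lost the call without WT replicate 1, 2 or 3 or Mut replicate 1 or 2 (adjusted p = 0.0507 to 0.179). Inhba no longer passed without WT replicate 1, 2 or 3 or Mut replicate 2 (adjusted p = 0.151 to 0.159). Il23a, the subunit particular to interleukin-23, was low in both groups but above the floor, at 0.848, 0.948 and 1.08 CPM in WT and 2.78, 3.198 and 3.09 CPM in Mut (log2 fold change 1.64 ± 0.34, adjusted p = 0.00158). Il12b, the subunit that interleukin-12 and interleukin-23 share, stood at 79.6, 89.7 and 91.2 and 160.3, 115 and 89.6 CPM, where the groups overlapped (adjusted p = 0.46). The interleukin-12 list had 3 members called without Mut replicate 3 and 2 without WT replicate 2 or Mut replicate 1. Il12a did not pass, at 43.6, 49.9 and 41.9 and 74.5, 59.8 and 53.01 CPM (0.46 ± 0.12, adjusted p = 0.0613). Il12a passed with no composition factor (adjusted p = 0.0381), with no filter on low counts (adjusted p = 1.51e-07), with DESeq2 (adjusted p = 0.00211), with all 18 libraries in the fit (adjusted p = 0.0104), without WT replicate 2 (adjusted p = 0.0286), without Mut replicate 1 (adjusted p = 0.0174) and without Mut replicate 3 (adjusted p = 6.03e-05). Osm rose from 9.44, 14.2 and 12.9 to 20.4, 18.7 and 17.3 CPM (log2 fold change 0.62 ± 0.13, adjusted p = 0.00299). Tnf was at 1762, 1868 and 1796 CPM in WT and 2343, 2119.8 and 2049 CPM in Mut, a small but separated difference (log2 fold change 0.26 ± 0.048, adjusted p = 0.00042). Il10 was at 0 counts in all 3 Mut libraries and at 2, 0 and 6 counts in WT, too few to test, and Ifnb1 had at most 2 counts in any of the 6.

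Of 9 colony-stimulating factor and receptor genes, 3 rose (33.3%) and none fell. Csf2, which encodes GM-CSF, had 6, 5 and 4 counts in WT and 22, 13 and 22 in Mut (log2 fold change 1.90 ± 0.45, adjusted p = 0.00634). Csf2 missed the threshold without WT replicate 3 or Mut replicate 1 (adjusted p = 0.0588 to 0.0602). Csf1, the macrophage growth factor, rose from 57.2, 66.2 and 66.98 to 91.5, 87.3 and 77.9 CPM (log2 fold change 0.43 ± 0.072, adjusted p = 0.000216). Csf3, which encodes G-CSF, did not pass at 0.089 ± 0.23 (adjusted p = 0.901), whereas its receptor gene Csf3r rose by 0.25 ± 0.053 (adjusted p = 0.00239). Growth factors for other cells moved both ways, with 4 of 15 higher (26.7%) and 2 lower (13.3%). Pdgfb was at 33.7, 35.4 and 33.2 CPM in WT and 58.9, 56.5 and 59.3 CPM in Mut, with close replicates (log2 fold change 0.77 ± 0.073, adjusted p = 1.5e-08). Hbegf rose by 0.79 ± 0.12 and Igf1 by 0.50 ± 0.062. Gdf15, a stress-induced member of the TGF-beta family, fell from 202, 213 and 203 to 151, 142 and 163 CPM (log2 fold change -0.43 ± 0.054, adjusted p = 1.71e-06), and Vegfa fell from 21.1, 22.7 and 17.7 to 16.9, 14.3 and 15.6 CPM (log2 fold change -0.39 ± 0.12, adjusted p = 0.0421). Vegfa lost the call without WT replicate 1 or 2 or Mut replicate 2 or 3 (adjusted p = 0.0791 to 0.247).

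At the receptor, Cd14 rose from 683, 749 and 739 to 974, 896 and 946 CPM (log2 fold change 0.38 ± 0.047, adjusted p = 1.8e-06) and Tlr4 from 72.7, 76.8 and 75.2 to 97.3, 89.9 and 85.02 CPM (log2 fold change 0.27 ± 0.063, adjusted p = 0.00562). With the adaptor gene Tab2 they were the 3 of 19 members of the Toll-like receptor 4 list that passed (15.8%), and the list's median was 0.0183. Tab2 no longer passed without WT replicate 1 or 2 or Mut replicate 1 or 2 (adjusted p = 0.0564 to 0.127). Of 17 NF-kB subunits and inhibitors, Nfkb1 (0.22 ± 0.045) and Tnip1 (0.17 ± 0.045) rose and none fell (11.8% higher), and 4 were called without Mut replicate 3. The count was 1 without WT replicate 1, WT replicate 2 or Mut replicate 2. Tnip1 missed the threshold without WT replicate 1 or 2 or Mut replicate 2 (adjusted p = 0.0584 to 0.138). The inhibitor gene Nfkbia stood at 469.6, 490.5 and 489 CPM in WT and 526, 515 and 528 CPM in Mut, which did not pass (adjusted p = 0.146). Nfkbia passed with all 18 libraries in the fit (adjusted p = 0.0487). Of 15 immediate early factors, 6 rose (40%) and none fell. Atf3, a repressor induced by LPS, rose from 328, 359.8 and 335 to 456, 452 and 439 CPM (log2 fold change 0.40 ± 0.048, adjusted p = 1.05e-06), and Jund from 309, 297 and 275 to 364, 361 and 404 CPM (log2 fold change 0.36 ± 0.053, adjusted p = 2.78e-05). Fosl2, Junb and Egr2 rose by 0.27, 0.22 and 0.24 on the log2 scale, each with an SE of 0.05. The sixth, Ier2, rose by 0.40 ± 0.10. Ier2 lost the call without WT replicate 1 or 3 or Mut replicate 1 or 2 (adjusted p = 0.0649 to 0.143). Klf6 was the member of 10 Kruppel-like factors that passed, at 487, 509 and 512 CPM in WT and 714, 677 and 649 CPM in Mut (log2 fold change 0.44 ± 0.047, adjusted p = 1.82e-07). Of 13 factors of cytokine mRNA decay and stability, Zfp36, which encodes tristetraprolin, rose from 125, 125 and 110.5 to 155, 146 and 139 CPM (log2 fold change 0.29 ± 0.058, adjusted p = 0.0016) and no other passed. The shares called in these last lists, 10% of the Kruppel-like factors and 7.69% of the decay factors, rest on 1 gene each and are near the 6.3% of all tested genes called in either direction.

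Some feedback inhibitors of cytokine signalling rose. Of 8 SOCS inhibitors, 3 rose (37.5%) and none fell, and the median was 0.36. Socs3 went from 218, 225 and 220.2 to 354, 341 and 293 CPM (log2 fold change 0.57 ± 0.057, adjusted p = 2.81e-07). Socs2 went from 2.97, 3.08 and 2.07 to 8.09, 7.06 and 5.94 CPM (log2 fold change 1.38 ± 0.23, adjusted p = 0.000124), and Socs1 from 16.4, 16.8 and 12.1 to 29.6, 26.9 and 20.4 CPM (log2 fold change 0.76 ± 0.15, adjusted p = 0.00447). Cish, of the same family, stood at 12.9, 11.8 and 13.1 CPM in WT and 47.03, 33.7 and 24.2 CPM in Mut. Its groups were apart but the Mut replicates spread widely, and it did not pass (1.44 ± 0.30, adjusted p = 0.0725). Cish passed with no filter on low counts (adjusted p = 3.92e-12), with DESeq2 (adjusted p = 3.02e-05), with all 18 libraries in the fit (adjusted p = 0.000456), without Mut replicate 1 (adjusted p = 2.38e-07) and without Mut replicate 3 (adjusted p = 1.21e-11). Of 11 MAP kinase phosphatases of the DUSP family, Dusp1, Dusp8 and Dusp16 rose by 0.34, 0.75 and 0.29 on the log2 scale, which is 27.3% of the list. Dusp1 no longer passed without WT replicate 1 or 3 or Mut replicate 3 (adjusted p = 0.0505 to 0.0574). Dusp8 missed the threshold without WT replicate 2 (adjusted p = 0.055). Dusp16 lost the call without WT replicate 3 or Mut replicate 2 (adjusted p = 0.102 to 0.143). Spry1, an inhibitor of the MAP kinase pathway, rose from 5.41, 6.28 and 6.57 to 13.3, 10.5 and 10.9 CPM (log2 fold change 0.91 ± 0.16, adjusted p = 0.000291).

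**Figure D3:**
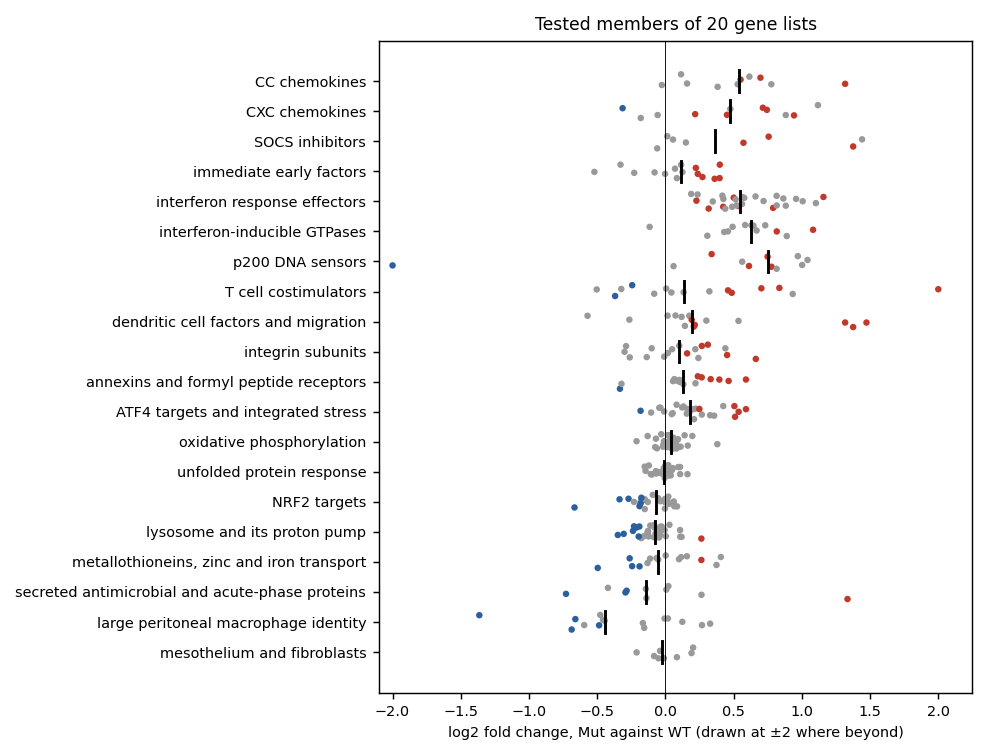
Log2 fold change, Mut against WT, of each tested member of 20 gene lists, with called-higher members in red, called-lower members in blue, the others in grey and a black bar at the list's median; vertical scatter has no meaning, and points beyond 2 on either side are drawn at 2. Interferon effectors, interferon-inducible GTPases and p200 genes lie mostly right of 0 with few called members, while the NRF2 and lysosome lists lie close to 0 with blue members on the left.

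Of 28 interferon response effectors 7 were called higher, which is 25% against 3.68% of all tested genes. None were called lower, and the median log2 fold change was 0.55. In 23 of the 28 all Mut libraries lay above all WT libraries, against 11.4% of all tested genes. Rtp4 was the member with the smallest p, at 80.1, 91.5 and 94.5 CPM in WT and 143, 127 and 117 CPM in Mut (log2 fold change 0.54 ± 0.073, adjusted p = 6.62e-05). Isg20 rose by 0.79 ± 0.19 and Ifi35 by 0.42 ± 0.083. Isg15, a ubiquitin-like modifier, was at 83.9, 97.98 and 86.3 and 147, 122 and 111 CPM (log2 fold change 0.50 ± 0.11, adjusted p = 0.0293) and Ifi44 at 2.23, 1.66 and 3.51 and 7.59, 6.07 and 3.75 CPM (log2 fold change 1.16 ± 0.29, adjusted p = 0.0145). Isg15 no longer passed without WT replicate 1 or 3 or Mut replicate 2 (adjusted p = 0.099 to 0.149). Ifi44 missed the threshold without WT replicate 1 or 2 or Mut replicate 1 or 2 (adjusted p = 0.073 to 0.0849). Ifit1, which binds foreign RNA, missed the threshold at 136, 178 and 162 CPM in WT and 341, 241 and 205 CPM in Mut (log2 fold change 0.72 ± 0.24, adjusted p = 0.244). Mx1, at 43.5, 51.9 and 46.9 and 122, 81.4 and 62.4 CPM, did not pass either (adjusted p = 0.245). Ifit1 passed with all 18 libraries in the fit (adjusted p = 0.00888). Mx1 passed with DESeq2 (adjusted p = 0.038) and without Mut replicate 1 (adjusted p = 0.00241). In both genes Mut replicate 1 was the highest library and all 3 Mut libraries were above WT. The count of 7 moved to 17 without Mut replicate 1, to 17 without Mut replicate 3, to 4 without Mut replicate 2 and to 3 without WT replicate 1, and was 18 with DESeq2, 16 with no filter on low counts and 22 with all 18 libraries in the fit. Of 13 interferon-inducible GTPases 2 were called (15.4%), Gbp9 and Gvin1, with a median of 0.63, and 10 were called without Mut replicate 3, 8 without Mut replicate 1, 1 without Mut replicate 2 and 0 without WT replicate 1 or 3. Gbp9 lost the call without WT replicate 1 or 3 (adjusted p = 0.0647 to 0.0736). Gvin1 no longer passed without WT replicate 1 or 3 or Mut replicate 1 or 2 (adjusted p = 0.0769 to 0.194).

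Among genes of interferon signalling itself, 6 of 17 rose (35.3%) and none fell. The count was 3 without WT replicate 1, 3 without Mut replicate 2 and 7 without Mut replicate 3. Jak2 rose from 248, 246 and 248 to 325, 291 and 275 CPM (log2 fold change 0.26 ± 0.053, adjusted p = 0.00161) and the receptor gene Ifnar1 from 265, 277 and 281 to 318, 332 and 316 CPM (log2 fold change 0.23 ± 0.047, adjusted p = 0.00177). Irf2 rose by 0.24 ± 0.063, Irf5 by 0.18 ± 0.05 and Stat2 by 0.44 ± 0.10. Irf2 missed the threshold without WT replicate 3 or Mut replicate 2 (adjusted p = 0.0889 to 0.106). Irf5 lost the call without WT replicate 1 or 2 or Mut replicate 1 (adjusted p = 0.0578 to 0.136). Stat2 no longer passed without WT replicate 1 or 3 or Mut replicate 2 (adjusted p = 0.143 to 0.192). The p200 family, a tandem cluster of interferon-inducible DNA-binding proteins on chromosome 1, had 4 of 11 tested members higher (36.4%) and 1 lower, with a median of 0.75. Ifi211 rose from 39.8, 40.3 and 45.3 to 68.5, 65.8 and 58.6 CPM (log2 fold change 0.61 ± 0.076, adjusted p = 1.64e-06), and Mndal from 86.2, 90.8 and 86.6 to 166, 149 and 129 CPM (log2 fold change 0.75 ± 0.074, adjusted p = 2.1e-06). Ifi207 rose by 0.34 ± 0.063 and Ifi203 by 0.78 ± 0.12. Ifi203 missed the threshold without WT replicate 1 or 3 or Mut replicate 2 (adjusted p = 0.0774 to 0.142). Ifi208 (chromosome 1, 173673675 to 173698395, plus strand) went the other way, with 18, 16 and 34 counts in WT and 2, 1 and 2 in Mut (log2 fold change -3.67 ± 0.54, adjusted p = 1.8e-05). Ifi206, also of the cluster, rose from 3.39, 4.502 and 4.14 to 13.1, 10.4 and 7.25 CPM (log2 fold change 1.33 ± 0.21, adjusted p = 0.000109). Members of this family are near copies of each other, so read assignment between them is uncertain. The count of 4 higher became 8 without Mut replicate 1 and 8 without Mut replicate 3. It was 3 without WT replicate 1, WT replicate 3 or Mut replicate 2.

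**Figure D4:**
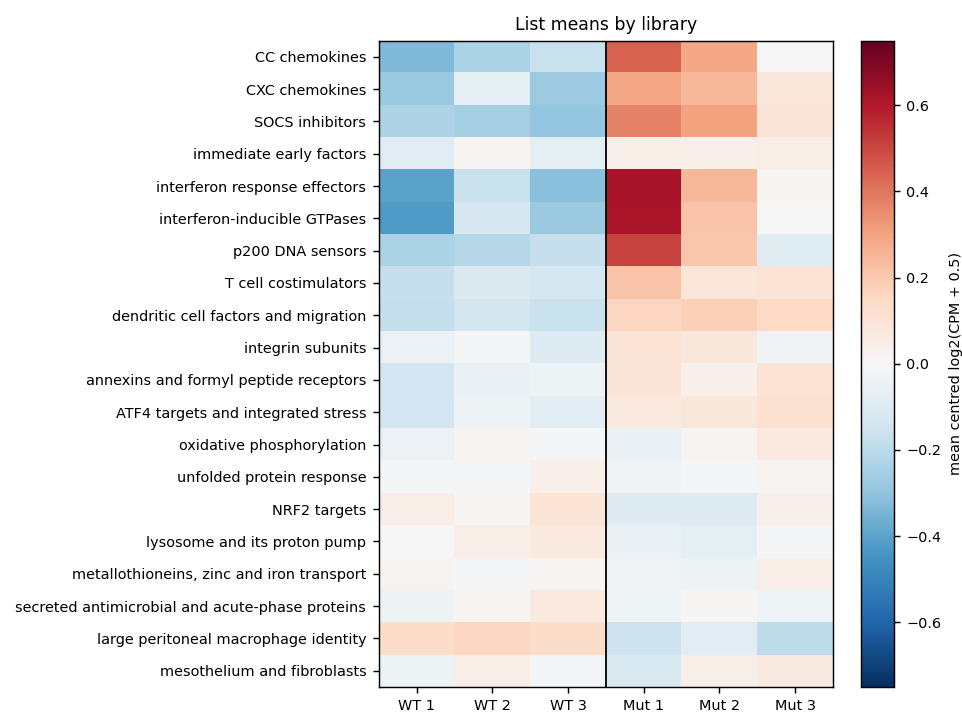
Mean over the tested members of each of 20 lists of log2(CPM + 0.5), centred per gene on its mean over the 6 libraries, with one column per library. In the interferon and p200 lists, Mut replicate 1 is highest and Mut replicate 3 close to 0 (0.617 and 0.0148 for interferon effectors), and in the large peritoneal macrophage list all 3 Mut libraries are below all 3 WT libraries.

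The Mut replicates were not equally far from WT. Of the 460 genes called higher, 283 had their highest Mut value in replicate 1, 101 in replicate 2 and 76 in replicate 3. Of the 328 called lower, 151 had their lowest Mut value in replicate 1, 137 in replicate 2 and 40 in replicate 3. The inducible nitric oxide synthase gene Nos2 stood at 13.9, 18.96 and 12.2 CPM in WT and 56.1, 21.3 and 18.1 CPM in Mut, so that 1 Mut library stood apart while the other two lay near WT (log2 fold change 1.05 ± 0.59, adjusted p = 0.483). Ptgs2, which encodes cyclooxygenase-2, did not pass (adjusted p = 0.183), with 511, 551 and 512 CPM in WT and 1261, 883 and 702 CPM in Mut, where all 3 Mut libraries lay above WT. Ptgs2 passed with DESeq2 (adjusted p = 0.0163), with all 18 libraries in the fit (adjusted p = 0.00264) and without Mut replicate 1 (adjusted p = 0.00379). Over genes with an average log2 CPM of at least 2, the median SD of log2 CPM between replicates was 0.0899 in WT and 0.0955 in Mut. Acod1, which makes itaconate, rose from 3125, 3414 and 3418 to 4090.0, 3812 and 3726 CPM (log2 fold change 0.22 ± 0.046, adjusted p = 0.00188).

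Molecules of antigen presentation to T cells changed unevenly. Of 15 tested T cell costimulators and checkpoint ligands, 5 rose (33.3%) and 2 fell (13.3%), led by Icosl. The 5 became 2 without WT replicate 1 and 3 without WT replicate 3 or Mut replicate 2, and the 2 became 4 without Mut replicate 1. Cd40, the receptor for T cell help, rose from 143, 149.6 and 135 to 293, 244 and 228 CPM (log2 fold change 0.84 ± 0.087, adjusted p = 0.000328). Cd274, which encodes PD-L1, rose by 0.49 ± 0.09. Cd274 lost the call without WT replicate 1 or 3 or Mut replicate 2 (adjusted p = 0.0715 to 0.182). Vsir, which encodes the checkpoint protein VISTA, fell from 381, 405 and 405 to 330, 325 and 350.1 CPM (log2 fold change -0.24 ± 0.048, adjusted p = 0.00107), and Cd200r1, an inhibitory receptor, fell from 57.05, 64.9 and 62.5 to 44.9, 50.1 and 47.6 CPM (log2 fold change -0.37 ± 0.072, adjusted p = 0.00103). The classical costimulators did not pass: Cd80 was at 9.44, 8.41 and 10.1 CPM in WT and 8.34, 5.85 and 5.86 CPM in Mut (adjusted p = 0.0796), and Cd86 at 8.69, 6.87 and 7.65 and 9.48, 4.52 and 5.05 CPM (adjusted p = 0.513). Cd80 passed with all 18 libraries in the fit (adjusted p = 0.0224) and without Mut replicate 1 (adjusted p = 0.0245). Cd86 passed without Mut replicate 1 (adjusted p = 0.0426). None of 9 tested MHC class II presentation genes passed, and the median was 0.15. Of 15 dendritic cell factors and migration genes 6 rose (40%) and none fell. Ccl22 and Socs2, given above, were among the 6, and the count was 4 without WT replicate 3 or Mut replicate 1. Batf3, a factor of cross-presenting dendritic cells, was at 2.23, 2.72 and 2.07 CPM in WT and 5.31, 7.39 and 6.596 CPM in Mut (log2 fold change 1.47 ± 0.23, adjusted p = 7.03e-05). Several genes that mark dendritic cells were at or near 0 in both groups. Xcr1 had at most 2 counts, Clec9a at most 3 and Cd209a at most 2 in any of the 6 libraries. Flt3 had 1 to 5 counts in WT and 4 to 10 in Mut. Other markers of the list were detected. Fscn1 had 239 to 341 counts in WT and 281 to 404 in Mut. Zbtb46 had 21 to 39 in WT and 21 to 41 in Mut, and Ccr7 had 7 to 15 and 5 to 21. Fscn1, Zbtb46 and Ccr7 did not pass.

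Of 15 tested genes known from large peritoneal macrophages, the main resident population of the cavity, none rose and 4 fell (26.7%), with a median of -0.45. Thbs1, a matricellular protein that binds latent TGF-beta, fell from 259, 250.4 and 254 to 170.3, 152 and 153 CPM (log2 fold change -0.69 ± 0.052, adjusted p = 1.44e-10). Ltbp1, which tethers latent TGF-beta to the matrix, fell from 10.3, 10.3 and 9.63 to 4.42, 4.41 and 3.09 CPM (log2 fold change -1.36 ± 0.18, adjusted p = 5.64e-06). Mrc1, the mannose receptor, fell from 179.8, 179.8 and 198 to 129, 135 and 134 CPM (log2 fold change -0.49 ± 0.053, adjusted p = 2.81e-07), and Prg4 fell by 0.66 ± 0.19. Prg4 no longer passed without WT replicate 1, 2 or 3 or Mut replicate 2 or 3 (adjusted p = 0.0605 to 0.17). Gata6 did not pass, at 3.82, 6.04 and 2.79 CPM in WT and 3.67, 3.53 and 3.83 CPM in Mut. Timd4 was below WT in all 3 Mut libraries, at 3.18, 3.44 and 3.24 and 2.53, 1.99 and 2.52 CPM, and did not pass (adjusted p = 0.375). Adgre1, a gene of the same list, stood at -0.0065 ± 0.045, and Csf1r, Cd68 and Spi1 did not pass. Of 8 tested genes of small peritoneal macrophages and monocytes, none was called higher and Clec4a1 was called lower, while the median of the list was 0.26. Clec4a1 missed the threshold without WT replicate 1, 2 or 3 or Mut replicate 1 or 2 (adjusted p = 0.0615 to 0.176).

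Secreted proteins that act outside the cell included strong falls. Slpi, the secretory leukocyte protease inhibitor, stood at 340.2, 349 and 340.1 CPM in WT and 207, 191 and 223 CPM in Mut (log2 fold change -0.73 ± 0.052, adjusted p = 5.6e-11). Lyz2, which encodes the main macrophage lysozyme, fell from 7166, 7604 and 7680.3 to 6268, 5877 and 6179 CPM (log2 fold change -0.29 ± 0.043, adjusted p = 2.29e-05); its near copy Lyz1 also fell, and reads may be shared between them. Lyz1 lost the call without WT replicate 3 or Mut replicate 2 (adjusted p = 0.0531 to 0.0738). In the same list of 10, Ptx3, a soluble pattern recognition protein, rose from 4.67, 5.09 and 4.86 to 14.03, 13.5 and 9.85 CPM (log2 fold change 1.33 ± 0.17, adjusted p = 2.58e-06). C4b, complement C4, fell from 28.4, 26.7 and 29.2 to 15.6, 12.5 and 15.2 CPM (log2 fold change -0.96 ± 0.11, adjusted p = 4.31e-07), whereas the receptors for the complement fragments C3a and C5a rose, C3ar1 by 0.41 ± 0.051 and C5ar1 by 0.25 ± 0.047. Of 18 coagulation and fibrinolysis genes 3 rose and 3 fell, 16.7% each way. Thbd, which encodes the anticoagulant thrombomodulin, fell from 7.32, 9.24 and 9.002 to 3.16, 3.75 and 3.83 CPM (log2 fold change -1.24 ± 0.20, adjusted p = 6.62e-05). F3, tissue factor, rose by 0.46 ± 0.13 and Serpinb2 by 0.31 ± 0.074. F3 no longer passed without WT replicate 1 or 2 or Mut replicate 1 or 2 (adjusted p = 0.0626 to 0.136). Serpinb2 missed the threshold without WT replicate 2 or Mut replicate 2 (adjusted p = 0.0606 to 0.101).

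Matrix metalloproteinases split in the same way, with 2 of 16 members of that list higher and 2 lower, 12.5% each way. Mmp12, the macrophage elastase, rose from 3018, 3151 and 3451 to 4198, 4214 and 4363 CPM (log2 fold change 0.41 ± 0.046, adjusted p = 4.68e-07) and Mmp13 from 50.3, 53.7 and 54.1 to 88.1, 78.97 and 72.1 CPM (log2 fold change 0.59 ± 0.072, adjusted p = 1.23e-06). Mmp8 fell from 5.302, 5.69 and 5.13 to 2.78, 3.53 and 2.61 CPM (log2 fold change -0.86 ± 0.23, adjusted p = 0.0174) and Mmp9 by 0.28 ± 0.076. Mmp8 lost the call without WT replicate 2 or Mut replicate 1 or 3 (adjusted p = 0.0549 to 0.0779). Mmp9 no longer passed without WT replicate 1, 2 or 3 or Mut replicate 1 (adjusted p = 0.0587 to 0.171). Of 17 integrin subunits 5 rose (29.4%) and none fell. Itgav rose from 250.3, 257 and 251 to 365, 363 and 311 CPM (log2 fold change 0.45 ± 0.054, adjusted p = 1.77e-06) and its partner Itgb8, with which it forms an activator of latent TGF-beta, from 31.3, 31.8 and 30.9 to 55.8, 52.1 and 42.02 CPM (log2 fold change 0.66 ± 0.09, adjusted p = 1.35e-05). Itga5 rose by 0.31 ± 0.045 and Itga4 by 0.27 ± 0.057. Spp1, which encodes osteopontin, an integrin ligand, rose from 670.1, 728 and 793 to 1139, 1225 and 1191 CPM (log2 fold change 0.70 ± 0.052, adjusted p = 1.59e-09). Tns1, which links integrins to actin, fell from 179, 173 and 174 to 107, 114 and 123.1 CPM (log2 fold change -0.61 ± 0.056, adjusted p = 9.99e-09). Myo1e and Fnbp1l, genes of membrane-associated actin, rose by 0.58 ± 0.053 and 0.61 ± 0.057. Of 15 annexins, S100 proteins and formyl peptide receptors 6 rose (40%) and 1 fell. Anxa1, a mediator of resolution, rose from 425, 443 and 461 to 605, 603 and 624 CPM (log2 fold change 0.46 ± 0.046, adjusted p = 4.44e-08), while Fpr1, a receptor of formyl peptides, fell from 75.1, 80.2 and 90.02 to 72.7, 60 and 63.03 CPM (log2 fold change -0.33 ± 0.076, adjusted p = 0.00655). Fpr1 missed the threshold without WT replicate 3 or Mut replicate 2 (adjusted p = 0.0704 to 0.0809).

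Receptors at the cell surface gave further separated pairs. P2ry6, the receptor for UDP, rose from 8.06, 9.36 and 10.7 to 19.6, 24.6 and 21.99 CPM (log2 fold change 1.23 ± 0.13, adjusted p = 1.37e-07), and P2ry2, which senses ATP and UTP, fell from 116, 113 and 121 to 90.9, 97.7 and 102 CPM (log2 fold change -0.26 ± 0.058, adjusted p = 0.00375). Fcgr1, the high-affinity IgG receptor, was at 1.697, 4.62 and 3.69 CPM in WT and 9.36, 7.28 and 6.68 CPM in Mut (log2 fold change 1.21 ± 0.25, adjusted p = 0.00378). Clec12a, an inhibitory lectin, rose from 68.2, 63.7 and 73.9 to 115, 125 and 102 CPM (log2 fold change 0.72 ± 0.072, adjusted p = 4.74e-07), and Cd72, an inhibitory lectin best known from B cells, from 2.86, 1.896 and 1.8 to 6.19, 5.85 and 5.46 CPM (log2 fold change 1.41 ± 0.25, adjusted p = 0.000255). Cd22, an inhibitory sialic acid receptor best known from B cells as well, fell from 69.7, 72.9 and 67.6 to 48.2, 45.2 and 53.3 CPM (log2 fold change -0.51 ± 0.071, adjusted p = 9.75e-06). The summed level of the 6 tested B cell markers was 85.9 to 94.8 CPM in WT and 62.6 to 65.2 CPM in Mut. Cd22 made up most of this sum, which therefore mainly repeats its fall, and none of the other markers passed. Prostaglandin receptors moved apart, with Ptgir falling from 138, 130.3 and 131 to 102, 91.9 and 96.3 CPM (log2 fold change -0.46 ± 0.057, adjusted p = 1.23e-06), Ptger4 rising by 0.52 ± 0.13 and Ptger2 falling by 0.69 ± 0.20. Ptger4 lost the call without WT replicate 2 or Mut replicate 2 (adjusted p = 0.0538 to 0.0831). Ptger2 no longer passed without WT replicate 1 or 3 or Mut replicate 2 or 3 (adjusted p = 0.0537 to 0.18). Adgre5, which encodes CD97, fell from 185, 197 and 207 to 136, 134 and 150.2 CPM (log2 fold change -0.48 ± 0.056, adjusted p = 6.06e-07).

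Some genes of redox defence and of the lysosome fell. Of 26 tested NRF2 targets 7 fell, which is 26.9% against 2.62% of all tested genes, and none rose, and the median was -0.0727. Hmox1, heme oxygenase 1, fell from 966, 975 and 1033 to 753, 758 and 844 CPM (log2 fold change -0.34 ± 0.048, adjusted p = 1.67e-05), and Osgin1 from 26.5, 22.5 and 28 to 13.9, 15 and 19.1 CPM (log2 fold change -0.67 ± 0.12, adjusted p = 0.00042). Gclc, Slc7a11, Ftl1, Gstm1 and Slc48a1 fell by less, with log2 fold changes from -0.27 to -0.17, and the groups of Gclc overlapped. The count depended on single libraries: the count of 7 became 2 without Mut replicate 2, 3 without WT replicate 3 and 4 without WT replicate 1, WT replicate 2 or Mut replicate 1. It was 4 with DESeq2, 4 with no composition factor, 8 with limma-voom and 9 with all 18 libraries in the fit. Nqo1 and Txnrd1, 2 classical targets, did not pass, nor did Nfe2l2, which encodes NRF2 (0.085 ± 0.046). Of 34 lysosomal and proton pump genes 7 fell (20.6%) and 1 rose, and the median was -0.0756. Tfeb, the master regulator of lysosomal genes, fell from 60.3, 61.7 and 60.3 to 44.1, 45.99 and 52.2 CPM (log2 fold change -0.35 ± 0.073, adjusted p = 0.00201), and its relative Mitf was the one that rose, from 272, 247 and 282 to 325, 332 and 304 CPM (log2 fold change 0.26 ± 0.052, adjusted p = 0.00121). The hydrolase gene Naglu fell by 0.31 ± 0.053, the proton pump gene Atp6v1c1 by 0.23 ± 0.047 and the calcium channel gene Mcoln1 by 0.21 ± 0.059. Mcoln1 missed the threshold without WT replicate 2 or Mut replicate 2 (adjusted p = 0.168 to 0.235). The 7 that fell became 4 without Mut replicate 2, 5 without WT replicate 2 and 6 without WT replicate 3. They became 9 without Mut replicate 3 and 10 without WT replicate 1.

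Iron and metabolite genes followed in smaller numbers. Of 15 metal genes 4 fell (26.7%) and 1 rose. Tfrc, the transferrin receptor, fell from 281, 268 and 289.7 to 181, 198 and 215 CPM (log2 fold change -0.50 ± 0.055, adjusted p = 5.69e-07), and Slc11a1, the phagosomal metal exporter NRAMP1, from 1097, 1197 and 1165 to 973, 890.1 and 1021 CPM (log2 fold change -0.26 ± 0.05, adjusted p = 0.000792). Of 26 ATF4 targets 5 rose (19.2%) and 1 fell, and the median was 0.17. Mthfd2 rose from 48.7, 50.7 and 47.98 to 69.8, 68.8 and 74.5 CPM (log2 fold change 0.54 ± 0.067, adjusted p = 1.77e-06), Psat1 by 0.51 ± 0.11, Asns by 0.59 ± 0.11 and Phgdh by 0.51 ± 0.14. Phgdh lost the call without WT replicate 1 or 3 or Mut replicate 1 or 2 (adjusted p = 0.0515 to 0.149). The fifth was Wars, a tRNA synthetase gene, and the one that fell was Slc7a11. Wars no longer passed without WT replicate 1 or Mut replicate 1 (adjusted p = 0.0853 to 0.118). Slc7a11 missed the threshold without WT replicate 1 or 3 or Mut replicate 2 or 3 (adjusted p = 0.0593 to 0.0994). Mthfd2, Psat1, Asns and Phgdh encode enzymes of serine, one-carbon or asparagine synthesis. Atf4 itself was at 0.053 ± 0.047 (adjusted p = 0.624). Among lipid genes, Lpl, lipoprotein lipase, rose from 3378, 3364 and 3665 to 4592, 5011 and 4974 CPM (log2 fold change 0.49 ± 0.046, adjusted p = 1.5e-08), Scd1 by 0.56 ± 0.074 and Abcg1 by 0.38 ± 0.058, while 24 of 26 genes of cholesterol and fatty acid synthesis did not pass, the exceptions being Hsd17b7, which rose, and Insig1, which fell. Hsd17b7 lost the call without WT replicate 1, 2 or 3 or Mut replicate 2 or 3 (adjusted p = 0.096 to 0.203). Insig1 no longer passed without WT replicate 1, 2 or 3 or Mut replicate 1 or 2 (adjusted p = 0.0572 to 0.149). None of 38 oxidative phosphorylation genes and none of 24 unfolded protein response genes passed, with medians of 0.0377 and -0.0093. Of 23 tested transcriptional repressors and nuclear receptors 3 fell (13%) and 1, Nr4a3, rose. The 3 became 1 without Mut replicate 2 and 4 without Mut replicate 3. Bcl6, a repressor of inflammatory genes, fell from 29.5, 28.8 and 26.02 to 13.8, 14.8 and 16.1 CPM (log2 fold change -0.90 ± 0.11, adjusted p = 7.92e-07), and Rxra fell by 0.25 ± 0.057, as did Nr1d2, a clock repressor, by 0.31 ± 0.079. Rxra missed the threshold without Mut replicate 2 (adjusted p = 0.0769). Nr1d2 lost the call without WT replicate 2 or Mut replicate 2 (adjusted p = 0.0814 to 0.0868). Nr4a3 no longer passed without WT replicate 1 or 2 or Mut replicate 1 or 2 (adjusted p = 0.061 to 0.141). Ago2, the slicing Argonaute, fell from 766, 679 and 701 to 535, 549 and 552 CPM (log2 fold change -0.39 ± 0.048, adjusted p = 1.24e-06). None of 15 other genes named as small integral membrane proteins and none of 13 long noncoding RNAs of the lists passed.

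Further genes were named only for the size or the p of their change. Fam53c rose from 46.2, 47.3 and 48.2 to 82.2, 89.2 and 82.7 CPM (log2 fold change 0.84 ± 0.066, adjusted p = 3.08e-10). Aatk, a kinase gene, fell from 23.2, 25.9 and 21.8 to 13.7, 12.02 and 17.5 CPM (log2 fold change -0.69 ± 0.12, adjusted p = 0.000435) and the anion transporter gene Slc26a11 from 10.5, 11.3 and 10.4 to 5.31, 5.51 and 7.41 CPM (log2 fold change -0.79 ± 0.16, adjusted p = 0.00204). Btbd19, Tedc2, Stra6, which encodes a retinol receptor, and Nid1, which encodes a basement membrane protein, fell by 0.86, 0.82, 0.78 and 0.71 on the log2 scale, all at levels under 10 CPM. Btbd19 missed the threshold without WT replicate 1 (adjusted p = 0.0606). Tedc2 lost the call without WT replicate 1 or 3 or Mut replicate 1 or 2 (adjusted p = 0.0608 to 0.109). Stra6 and Nid1 no longer passed without WT replicate 1 or 2 or Mut replicate 1, 2 or 3 (adjusted p = 0.0619 to 0.304).

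Markers of other cell types that a peritoneal preparation can hold were followed in the same libraries. Most T and NK cell genes were at or near 0. Cd3d, Ncr1, Klrb1c and Prf1 had 0 counts in all 6 libraries. Cd3e, Cd3g, Cd8a and Trac had no more than 2. Il7r, of the same list, was well detected, with 4720 to 6319 counts in WT and 4360 to 6507 in Mut. Lck had 12 to 21 counts in WT and 9 to 17 in Mut, and neither Il7r nor Lck passed. Neutrophil genes S100a9, Ly6g, Elane and Retnlg were at 0 in all 6, while Csf3r rose and Mmp8 fell as given above. S100a8, of the same list, was detected at 74 to 106 counts in WT and 52 to 86 in Mut and did not pass. Mast cell genes were low, with Cpa3 at 11 to 23 counts in WT and 7 to 20 in Mut, and Hdc, which makes histamine, was called higher with overlapping groups at 2.65, 3.67 and 2.16 CPM in WT and 6.07, 6.73 and 3.66 CPM in Mut (log2 fold change 0.95 ± 0.26, adjusted p = 0.0246). Hdc missed the threshold without WT replicate 1 or 3 or Mut replicate 1 or 2 (adjusted p = 0.0807 to 0.192). Fibroblast genes were present: Col1a1 had 444 to 512 counts in WT and 351 to 610 in Mut. None of the 8 tested genes of mesothelium and fibroblasts passed, with a median of -0.025 and a summed level of 276 to 304 CPM in WT and 267 to 294 in Mut. Their part in the results was not tested.

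Genes around the mutated gene were counted by their distance from it. Within 5 Mb of Smim30, 5 of 21 tested genes were called, all higher, which is 23.8% against 6.3% of all tested genes. Within 20 Mb it was 8 of 94, again all higher, or 8.51%. From 20 to 40 Mb away it was 3 higher and 1 lower of 93 (4.3%), and beyond 40 Mb on chromosome 6 it was 14 higher and 18 lower of 437 (7.32%). The nearest, Gpr85, an orphan receptor gene with its midpoint 0.032 Mb from that of Smim30, rose from 38.6, 32.1 and 36.4 to 49.2, 49.9 and 50.7 CPM (log2 fold change 0.48 ± 0.078, adjusted p = 0.000103). St7, at 3.95 Mb, had the largest called change of the window, from 21.9, 22.04 and 22.96 to 41.7, 37.9 and 34.4 CPM (log2 fold change 0.76 ± 0.092, adjusted p = 1.14e-06). Mdfic, at 1.89 Mb, rose by 0.27 ± 0.055, and Tfec and Tes, at 3.00 and 3.22 Mb, by 0.25 ± 0.059 and 0.29 ± 0.066. Tfec lost the call without WT replicate 2 or Mut replicate 2 (adjusted p = 0.0583 to 0.0889). Asns, Zfp800 and Irf5 were the other called genes of the window. Zfp800 no longer passed without WT replicate 2 or 3 or Mut replicate 1 or 2 (adjusted p = 0.0755 to 0.2). Irf5 missed the threshold without WT replicate 1 or 2 or Mut replicate 1 (adjusted p = 0.0578 to 0.136). Genes between these did not pass, among them Bmt2, Tmem168 and Tmem106b, all within 1 Mb of Smim30. Bmt2 passed with all 18 libraries in the fit (adjusted p = 0.0206) and without WT replicate 3 (adjusted p = 0.0262). Without each library in turn, the count within 20 Mb was 5 to 10, with 5 left without WT replicate 2. The cause of the calls near Smim30 was not tested.

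**Figure D5:**
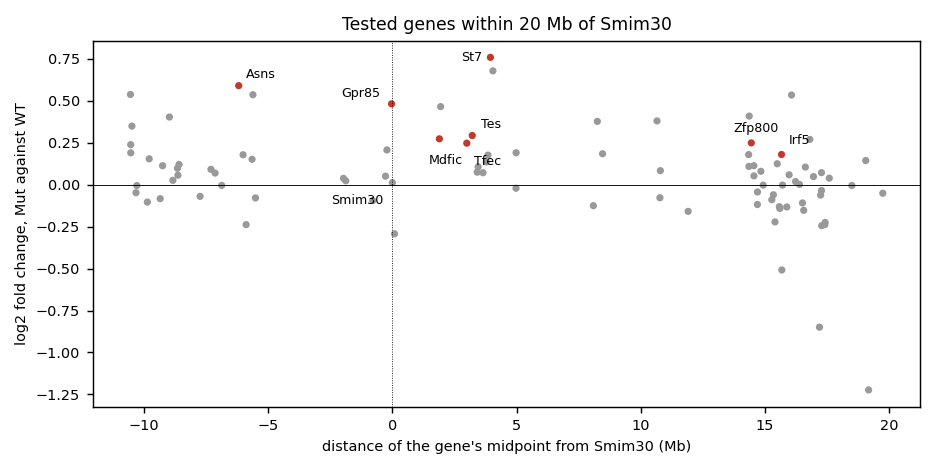
Log2 fold change, Mut against WT, of the 94 tested genes within 20 Mb of Smim30 against the distance of each gene's midpoint from that of Smim30, with called genes in red. The 8 called genes are all above 0, 5 of them within 5 Mb, and Smim30 itself is at 0.013.

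Knockdown of Smim30 by siRNA in LPS-treated IC-21 cells, an established mouse macrophage line, shares no library with this comparison. Smim30 itself separated the 2 perturbations, falling by 0.97 on the log2 scale with the siRNA, and the mutation effect minus the siRNA effect was 0.99 ± 0.15 (adjusted p = 1.85e-05). Of 14804 genes tested for such a difference, 372 passed (2.51%), of which 187 (1.26%) had a lower value for the mutation and 185 (1.25%) a higher one. The 372 became 571 without Mut replicate 3. Cxcl3, Cxcl2, Il1b, Il6, Tnf and Socs3 did not pass this test, with differences from 0.0208 for Cxcl2 to 0.81 ± 0.24 for Il1b. That does not show that the effects are alike. Cell type, manner of perturbation and level of Smim30 RNA differ together between the 2 experiments and cannot be told apart.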

How the data were processed

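RNA was total RNA in strand-specific libraries, per the labels' protocols. The deposited files hold raw counts of read pairs per gene from featureCounts 2.0.3, reversely stranded, on GENCODE M25 of GRCm38, per the file headers. fastp, FastQC, HISAT2 and DESeq2 3.1.0 are named in the submitters' processing notes. Of 55401 genes, 55141 got a symbol. WT and Mut libraries alone were fitted with edgeR 4.0.16 in R 4.3.3 (limma 3.58.1 and DESeq2 1.42.0 for alternatives): default filter on low counts, TMM scaling, robust quasi-likelihood F test, Benjamini-Hochberg adjusted p of 0.05 over all genes tested. "Passed" and "called" mean this threshold, and every adjusted p in the text is from this edgeR test unless another fit or comparison is named with it. SEs are the log2 fold change over the square root of F. The mutation effect minus the siRNA effect was tested over 12 libraries in the same way. The fits were tested on simulated data.

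Replicates of a group differed beyond sampling noise (chi-square per gene 2.86 to 5.24), so each counted as 1. Named genes were Smim30, the 15 strongest rises and 15 strongest falls by log2 fold change, from called genes whose average log2 CPM reached 2 and whose groups did not overlap, the 10 smallest p, up to 6 members of each of 73 gene lists, called genes within 20 Mb of Smim30 and the 6 leading genes each way against siRNA. Genes outside the rule, such as Trnp1, G530011O06Rik and the genes at the end of chromosome X, were chosen after their values were seen. The members and lists were chosen with earlier results of these data known. Alternatives were other scalings, filters, tools and samples, a replicate block and leaving out each library. Results for a few genes are not reported here.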

Additional observations from a re-analysis of the deposited data

Results flagged for a closer look

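These genes differed between the effect of the mutation (Mut against WT, peritoneal macrophages) and the effect of Smim30 siRNA (against control siRNA, IC-21 cells), by the test of that difference itself in edgeR. Values are differences of log2 fold changes, mutation minus siRNA, with their SE. Icosl differed by 2.09 ± 0.11 (adjusted p = 2.55e-19), from log2 fold changes of 2.16 with the mutation and 0.074 with the siRNA. Spp1 differed by 0.96 ± 0.071, from 0.70 with the mutation and -0.26 with the siRNA, and Lpl by 0.76 ± 0.067, from 0.49 with the mutation and -0.27 with the siRNA. In both of these the 2 effects had opposite signs. Fam53c differed by 0.73 ± 0.083, Wdfy1 by 0.90 ± 0.10 and Adgrl2 by 0.71 ± 0.083, with adjusted p of 2.32e-08, 2.32e-08 and 3.79e-08.

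With lower values for the mutation, Ago2 differed by -0.78 ± 0.064 (adjusted p = 8.67e-13), from -0.39 with the mutation and 0.39 with the siRNA. Slpi differed by -0.82 ± 0.076, from -0.72 with the mutation and 0.10 with the siRNA. Efhd2 differed by -0.60 ± 0.068, from -0.024 with the mutation and 0.57 with the siRNA. Emilin2 differed by -0.57 ± 0.078, Hmox1, heme oxygenase 1, by -0.46 ± 0.067 and Rgl1 by -0.51 ± 0.074, with adjusted p of 2.07e-06, 1.01e-05 and 1.11e-05. Smim30 itself differed by 0.99 ± 0.15 (adjusted p = 1.85e-05). The 12 genes other than Smim30 were the 6 with the smallest p in each direction, and each kept its call in every alternative fit.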

How the results depend on the processing

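The count of 788 genes was 1198 when all 18 libraries were fitted together, 775 of them shared, and the 53 genes at least 2-fold apart were then 89. Without each library in turn the 788 ranged from 469 (without Mut replicate 2) to 957 (without Mut replicate 3), and the 53 from 40 to 77. The 372 genes of the mutation minus siRNA comparison ranged from 267 to 571, the latter without Mut replicate 3. DESeq2 called 636 genes, 578 of them among the 788, and limma-voom 750. With the replicate number as a block the counts were 782, 51 and 410. Same-numbered WT and Mut libraries did not deviate together (correlations 0.0033, -0.0162 and 0.0732), so the numbers were not read as pairs. Library totals with no composition factor gave 64.0% of calls higher against 58.4%, and the median of all genes moved from -0.0057 to 0.0046. Of the 163 called genes named above, 109 passed in all 15 alternatives, 18 were lost with DESeq2, 43 without Mut replicate 2 and 6 with the replicate block, and none changed direction. The block ended the calls of Il1b (adjusted p = 0.143), Il1a (0.21), Inhba (0.0612), Hsd17b7, Stra6 and Vegfa, and Cish (0.000333) and Il12a (0.00222) passed with it. Of the genes named above that did not pass, 11 passed in at least 1 alternative. With 3 libraries a group, depth limits genes near 0.245 to 0.378 CPM, the worth of 3 counts.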

Other observations

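The 53 genes at least 2-fold apart were set beside the other 12 libraries, a view chosen after the values were seen, on CPM of the library total and with no test. In 14 of the 53 all 3 WT libraries lay beyond the 15 others, 6 above and 8 below. In 24 all 3 Mut libraries lay beyond the 15 others, 18 above and 6 below, and in 15 neither group did. The same counts were not made over all tested genes. The 53 were themselves picked by the difference between WT and Mut, so these counts are not read as a result. Icosl had mean levels of 10.3 CPM in WT, 46.2 CPM in Mut, 47.5 and 43 CPM in the Mut macrophages given control or Smim30 adenovirus and 72.4 and 75.4 CPM in IC-21 cells with control or Smim30 siRNA, so that WT was the group that stood apart. G530011O06Rik had mean levels of 8.85 CPM in WT, 0.232 CPM in Mut, 0.585 and 0.359 CPM in the Mut macrophages given control or Smim30 adenovirus and 0.983 and 1.09 CPM in IC-21 cells with control or Smim30 siRNA, with WT again apart. Trnp1 had mean levels of 0.387 CPM in WT, 3.99 CPM in Mut, 0.463 and 0.518 CPM in the Mut macrophages given control or Smim30 adenovirus and 0 and 0 CPM in IC-21 cells with control or Smim30 siRNA, and here Mut was apart. Ltbp1 had mean levels of 10 CPM in WT, 3.98 CPM in Mut, 4.59 and 4.19 CPM in the Mut macrophages given control or Smim30 adenovirus and 0.0278 and 0 CPM in IC-21 cells with control or Smim30 siRNA, with WT highest. The adenovirus groups also differ from Mut by the virus, and IC-21 is another kind of cell, so levels across these groups are a description only.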
